A study of Homo sapiens with 18 samples.

Results

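The genes described here encode the transcription factor NRF2 (gene NFE2L2) and the proteins that hold it back, pair with it on DNA or resemble it. They are the repressor KEAP1, the ubiquitin ligase scaffold CUL3, the small MAF proteins MAFG, MAFF and MAFK, the repressor BACH1, and the related factors NFE2L1 and NFE2L3. They were chosen by symbol, 9 of the 23411 gene symbols in the deposited counts, and all 9 had counts in all 18 libraries and were tested in every comparison. The cells were ARPE-19, an established human line that arose spontaneously from retinal pigment epithelium. Control cells (genotype label WT) were transduced with a lentivirus for Cas9 that carried no guide RNA. Edited cells were a single clone named C1, transduced with the same kind of virus carrying a guide to NFE2L2, so a difference between the lines cannot be told apart from a difference between this clone and the control population. Both were left untreated in Milli-Q H2O as vehicle, treated with 1 mM NACET, the ethyl ester of N-acetylcysteine, or treated with 0.2 mM H2O2, which gave 6 groups of 3 replicates. The series' design text gives 8 h of treatment after 40 h of culture. The sample protocols give 2 h after 22 h and serum of 1% rather than 10%. The paper describes the times and serum of this experiment as the design text does. The times of the design text are therefore taken to apply to every value below, although the sample protocols disagree.

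NRF2 belongs to the cap'n'collar (CNC) family of basic leucine zipper factors. In unstressed cells KEAP1 binds NRF2 and presents it to a CUL3 ubiquitin ligase, which marks it for the proteasome, and electrophiles or oxidants that modify cysteines of KEAP1 let NRF2 accumulate. NRF2 then pairs with a small MAF protein on antioxidant response elements (AREs) near genes of glutathione synthesis, NADPH supply and iron handling, sites at which BACH1, also paired with a small MAF, represses. Because this switch works largely on the protein, an mRNA level such as those given here does not report how much NRF2 is active. The retinal pigment epithelium is exposed to light and high oxygen, which is why this pathway is studied in it.

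The edit defines the edited group. NFE2L2 lies on the minus strand of hg19 at chr2:178095036-178129455 in GENCODE's main transcript. The alleles of clone C1 carry introduced stop codons at positions 503 and 505, per the labels, and both positions fall in the coding part of exon 5, the last of 5 exons. A stop at these positions removes 103 or 101 of the 605 codons of the reference protein, 17.0% or 16.7% of its length, from the end that holds the basic region and leucine zipper by which NRF2 binds DNA and small MAF proteins. Counts were summed over all exons, so they cannot show the edit, and the NFE2L2 level is no check of it.

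The starts of these genes were searched for binding motifs because NRF2 and its partners act through such sites. RefSeq promoter windows on GRCh38, from 250 bases before to 50 bases after a start, matched 8 of the 9 genes with 15 windows, and MAFK was not matched. The core letters of an ARE, TGACNNNGC on either strand, occurred in windows of KEAP1 and MAFF, and in 13.3% of all 35116 windows. An AP-1 site, TGACTCA, occurred in BACH1 and in 4.95% of all windows, the cAMP response element TGACGTCA in MAFF and in 1.85%, and the E-box CACGTG in MAFG and MAFF and in 7.26%. These motifs differ in letters and did not overlap one another in the windows of these genes. The matches to the ARE core are shown with the matched letters in capitals, as they read on the strand of the gene, and both the KEAP1 matches and the MAFF match lie before the start.
KEAP1, chr19:10502809-10502833, minus strand: ttttattgTGACACGGCgggcgccc
KEAP1, chr19:10502786-10502810, minus strand: ccggctctGCTTAGTCAtggtgacc
MAFF, chr22:38201864-38201888, plus strand: tccaggggGCGGGGTCAtacggggg
The AP-1 match of BACH1, the cAMP response element match of MAFF and the E-box match of MAFG, the gene with the clearest change, are shown in the same way.
BACH1, AP-1, chr21:29298866-29298888, plus strand: ggaaggagTGAGTCAcctgaccg
MAFF, cAMP response element, chr22:38201932-38201955, plus strand: cgggtcggTGACGTCAccgcatga
MAFG, E-box, chr17:81927738-81927759, minus strand: atggagccCACGTGaccaaaca
A match is a description of letters in a short window and says nothing of binding.

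Levels are CPM, counts scaled to library size, after TMM normalization over the 18 libraries, whose depth ran from 16673306 to 25951154 counts on genes. The edgeR quasi-likelihood test was used, its p-values were adjusted over all genes kept (Benjamini-Hochberg), a gene passed at an adjusted p under 0.05, and errors of log2 fold changes are SE. Nothing in the labels says that the 3 replicates of a group came from separate cultures, so these p-values measure the spread between libraries, which may be technical. Within a line, libraries with the same replicate number deviated together, so a fit that blocks on that number (the blocked fit) is given beside the values of the 9 genes where it changes a call, and as counts for the lists. In these bulk libraries, fewer cells making an mRNA and less of it per cell cannot be told apart. Of 15 markers of retinal pigment epithelium 10 reached a mean of 1 CPM, while the defining genes RPE65 and TYR stayed under 1 CPM together with RLBP1, DCT and TTR. Of 10 markers of other cells of the eye 2 reached 1 CPM, and AIF1 and CRX were at 0 in every library. The 2 were CD68, with group means of 99.2 to 118 CPM, and RGS5, with 1.94 to 3.71 CPM. The sums of these 10 genes, mostly CD68, overlapped between the lines (82.7 to 149 CPM in control libraries and 90.5 to 123 CPM in edited ones).

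**Figure D1:**
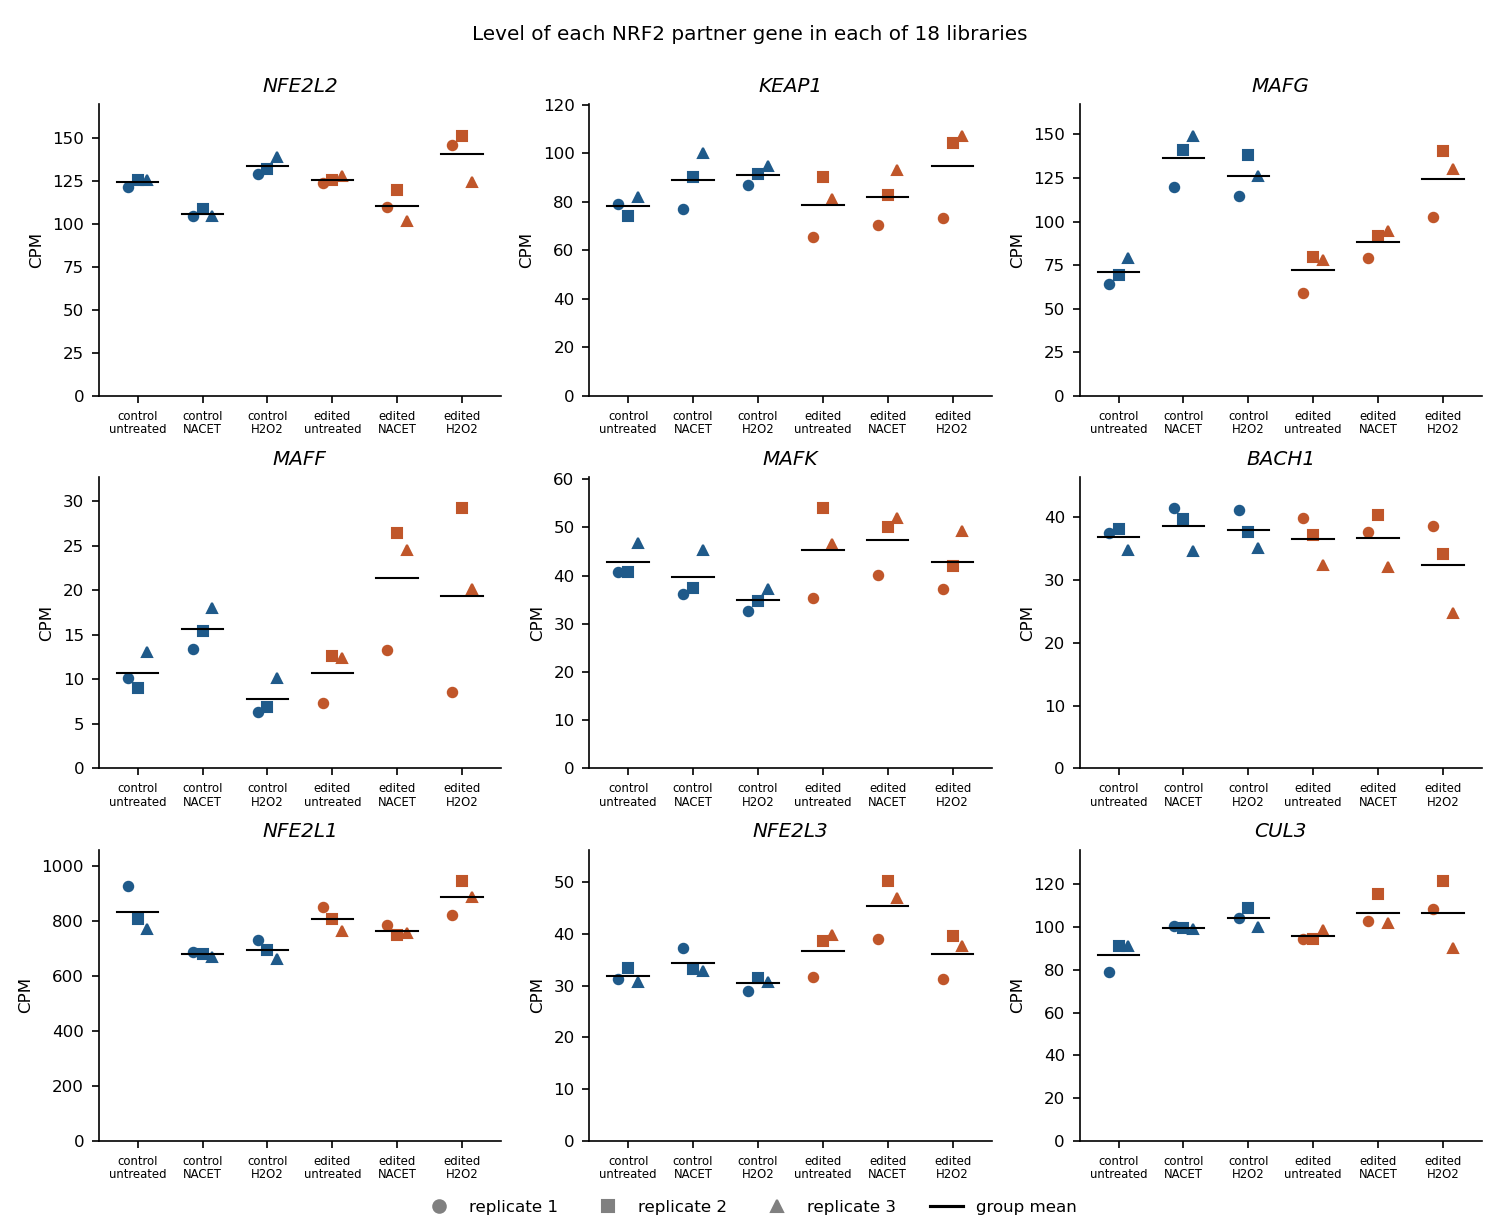
CPM of each of the 9 genes in each library, with control cells in blue, the edited clone in orange, 1 marker shape per replicate number and the mean of 3 libraries as a bar; every axis starts at 0. MAFG is higher in all libraries with NACET or H2O2 of control cells than in all untreated ones, whereas the 6 groups of BACH1 lie close together.

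Per kb of mRNA, a scale that allows genes to be compared roughly, NFE2L1 was the most abundant member in untreated control cells, at 172 CPM per kb. The full mRNA length was used, although reads in bases shared with a neighbouring gene may be counted for neither. MAFK shares 23.9% of its length, NFE2L3 20.0% and MAFF 13.7%, so their values may be too low. The order of genes with close values, such as MAFG, CUL3 and MAFK, is therefore not settled. NFE2L2 followed at 50.9 and KEAP1 at 30.6, then MAFG at 14.0, CUL3 at 12.9, MAFK at 12.7, NFE2L3 at 8.51, BACH1 at 6.54 and MAFF at 4.53 CPM per kb. The NRF2 mRNA was therefore well above that of BACH1, which represses at AREs. The 3 small MAF mRNAs together gave 31.2 ± 3.24 CPM per kb (SD, n = 3). Across the 18 libraries the lowest and highest CPM of a gene differed by 1.49-fold for NFE2L2 and by 4.59-fold for MAFF, which had the widest range of all 9.

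Few of the 9 genes passed in any comparison. With NACET in control cells 1 of 9 passed, MAFG, beside 3.67% of all 13696 genes tested, and the blocked fit passed 6 beside 40.7%. H2O2 in control cells gave 1 of 9, again MAFG, beside 13.2%, and 6 in the blocked fit beside 48.7%. In the edited clone NACET gave 0 of 9 by edgeR beside 1.43%, with 1 at an unadjusted p under 0.05 and 1 by DESeq2 (beside 4.98%), and 4 in the blocked fit beside 34%. H2O2 in the edited clone gave 1 of 9, MAFG, beside 11.1%, and 3 in the blocked fit beside 46.5%. These shares of the members have to be read against the shares of all genes, which in the blocked fits are large. All 4 comparisons share untreated libraries in pairs, so they are not independent of one another.

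**Figure D2:**
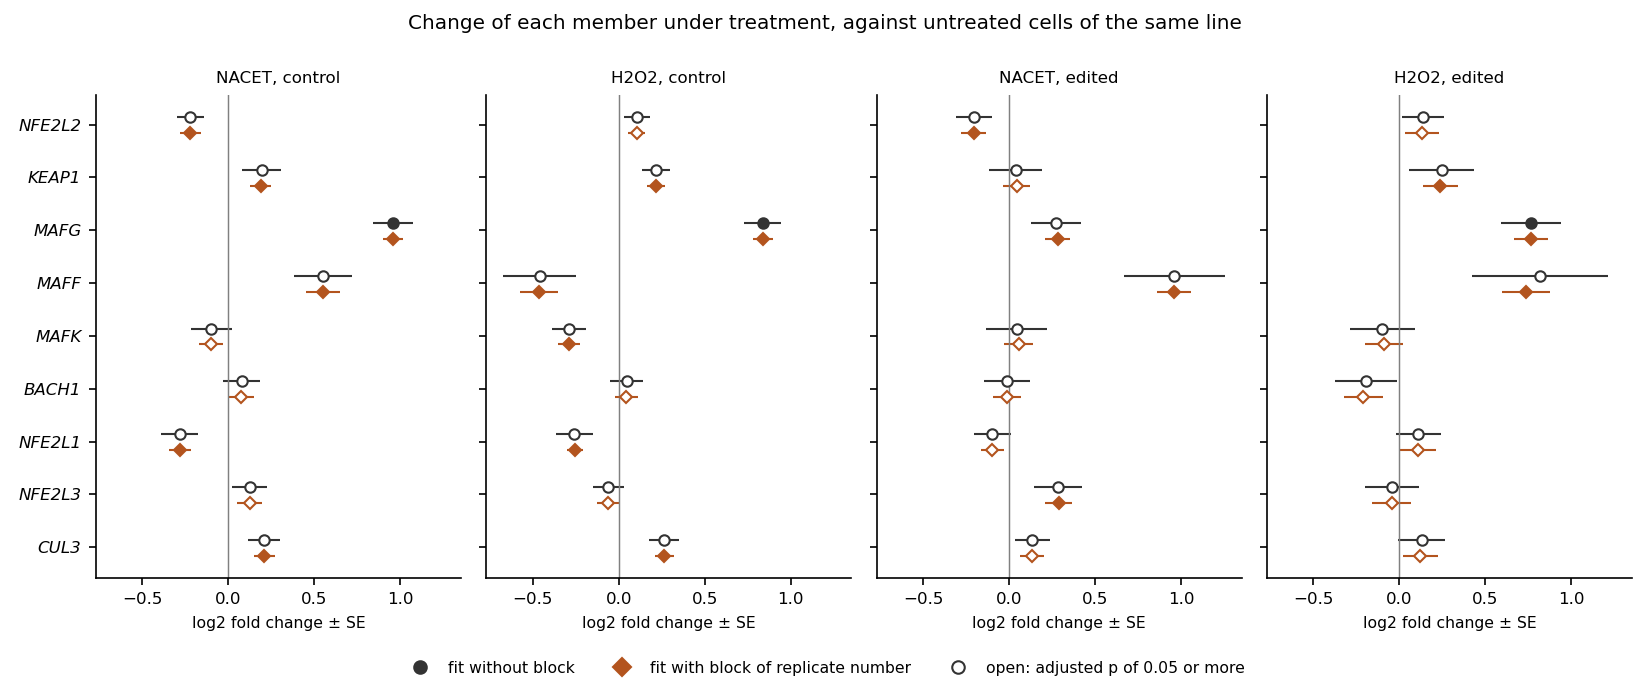
Fitted log2 fold change ± SE of each gene against untreated cells of the same line, for NACET and H2O2 in control and edited cells, from 3 libraries per group; circles are fits without the block, diamonds blocked fits, and filled symbols passed at an adjusted p under 0.05. The MAFG circle is filled in 3 of the 4 panels and no other circle is, while the diamonds lie at nearly the same fold changes with shorter error bars.

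NFE2L2, the targeted gene, had nearly equal mRNA levels in both untreated lines. Control cells had 122, 126 and 126 CPM in replicates 1, 2 and 3 when untreated, 105, 109 and 105 CPM with NACET, and 129, 132 and 139 CPM with H2O2. The edited clone had 124, 126 and 128 CPM untreated, 110.3, 120.0 and 102 CPM with NACET, and 146, 152 and 125 CPM with H2O2. In both lines every NACET library lay below every untreated one, whereas the H2O2 libraries lay above the untreated ones in control cells only and overlapped them in the clone through replicate 3. Untreated edited and control cells differed by a log2 fold change of 0.02 ± 0.09 (edgeR adjusted p = 0.963). NACET gave −0.22 ± 0.08 in control cells and −0.20 ± 0.10 in the clone, which did not pass (edgeR adjusted p = 0.169 and 0.341), but both passed in the blocked fit at −0.22 ± 0.06 and −0.21 ± 0.07 (edgeR adjusted p = 9.59e-04 and 0.0339). The change with NACET did not differ detectably between the lines, with a difference of −0.02 ± 0.11 on the log2 scale (control minus edited, edgeR adjusted p = 1.00). Against H2O2 rather than untreated cells, the NACET level was lower by −0.31 ± 0.08 in control cells and −0.32 ± 0.12 in the clone, and did not pass (edgeR adjusted p = 0.0572 and 0.142). Both passed in the blocked fit (edgeR adjusted p = 3.01e-04 and 3.41e-04) and in a fit of all 18 libraries without a block (edgeR adjusted p = 0.0257 and 0.00786), and the control cells also by DESeq2 (adjusted p = 0.0106).

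KEAP1, the cysteine-rich sensor that presents NRF2 for degradation, moved little. Untreated control cells had 79.1, 74.1 and 82.1 CPM, NACET gave 77.1, 90.1 and 99.9 CPM, and H2O2 gave 86.8, 91.3 and 94.6 CPM. In the clone the values were 65.3, 90.1 and 81.0 CPM untreated, 70.4, 82.9 and 93.0 CPM with NACET, and 73.4, 104 and 107 CPM with H2O2. Only H2O2 in control cells left no overlap with the untreated libraries, and replicate 1 was the lowest in all 3 groups of the clone. The log2 fold changes were 0.19 ± 0.11 and 0.22 ± 0.08 with NACET and H2O2 in control cells, and 0.04 ± 0.16 and 0.25 ± 0.19 in the clone (edgeR adjusted p = 0.373, 0.116, 0.922 and 0.409). In the blocked fit KEAP1 rose with NACET in control cells by 0.19 ± 0.06 and with H2O2 by 0.22 ± 0.05 there and 0.24 ± 0.10 in the clone (edgeR adjusted p = 0.00859, 0.00328 and 0.0467). The NACET call was lost when all 18 libraries were fitted with a block within each line (edgeR adjusted p = 0.0715).

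CUL3, the scaffold of the ubiquitin ligase, stood at 79.1, 90.9 and 91.2 CPM in untreated control cells, at 100.2, 99.6 and 99.2 CPM with NACET and at 104, 109 and 99.9 CPM with H2O2. Every treated library of the control line was above every untreated one. The clone had 94.4, 94.5 and 98.4 CPM untreated, 103, 116 and 102 CPM with NACET, and 108, 122 and 90.2 CPM with H2O2, where replicate 3 fell below the untreated libraries. In control cells 0.21 ± 0.09 (NACET) and 0.26 ± 0.09 (H2O2) did not pass without the block but did with it (edgeR adjusted p = 0.00268 and 0.00106, against 0.253 and 0.0847), and the NACET call was lost with all 18 libraries blocked within each line (edgeR adjusted p = 0.0516). In the clone 0.14 ± 0.10 and 0.13 ± 0.14 did not pass in either fit.

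The genes that act with KEAP1 and CUL3 were followed through a list of 16 that place, load or remove ubiquitin on NRF2 or regulate that step, among them RBX1, NEDD8, BTRC and GSK3B. None of the 16 passed in the 4 treatment comparisons by edgeR, with 0 or 1 by DESeq2. At an unadjusted p under 0.05 stood 5 in control cells under either treatment, beside 2854 of 13696 and 4208 of 13691 genes, and 3 and 2 in the clone, beside 2516 of 13542 and 4021 of 13543. The blocked fit passed 2 higher and 6 lower with NACET and 5 and 3 with H2O2 in control cells, and 2 and 5 with NACET and 5 and 2 with H2O2 in the clone, shares to be read against the 34% to 48.7% of all genes passed by these fits. In control cells their median log2 fold change was −0.07 with NACET and 0.07 with H2O2, and these stood beside −0.01 and 0.00 over all genes tested. A second list held 10 proteins that bind KEAP1 or NRF2, of which 9 were tested. SQSTM1, the autophagy receptor that binds KEAP1, rose in control cells by 0.92 ± 0.12 with NACET and 0.64 ± 0.11 with H2O2 (edgeR adjusted p = 0.0152 and 0.00944), and had 0.22 ± 0.14 with NACET and 0.51 ± 0.18 with H2O2 in the clone (edgeR adjusted p = 0.469 and 0.104), both of which passed in the blocked fit (edgeR adjusted p = 0.0140 and 3.70e-05). CDKN1A, the cell cycle inhibitor p21 that also binds NRF2, fell with NACET in control cells by 0.95 on the log2 scale and rose with H2O2 by 1.69 ± 0.11 there and 2.21 ± 0.21 in the clone (edgeR adjusted p = 0.0133, 8.36e-04 and 0.00150). With H2O2 in control cells 4 of 9 rose, beside 7.06% of all genes, and 0 fell, while the blocked fit had 4 higher and 2 lower beside 48.7% called. Among the 4 was PALB2, a partner of KEAP1 known for DNA repair, by 0.47 ± 0.11 (edgeR adjusted p = 0.0262).

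The small MAF genes held the clearest changes. These are short basic leucine zipper proteins without an activating domain of their own, so that their effect depends on whether they pair with NRF2, with BACH1 or with one another. MAFG nearly doubled with either treatment in control cells, and did so in the clone with H2O2 but not to that size with NACET.

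MAFG stood at 64.3, 69.5 and 79.0 CPM in untreated control cells, at 120.0, 141 and 149 CPM with NACET and at 115, 138 and 126 CPM with H2O2. All 6 treated libraries lay above all 3 untreated ones, and replicate 1 was the lowest of its group each time. NACET raised MAFG 1.94-fold, a log2 fold change of 0.96 ± 0.12 (edgeR adjusted p = 0.0117), and H2O2 raised it 1.79-fold, 0.84 ± 0.11 (edgeR adjusted p = 0.00418). The H2O2 rise passed without any 1 of the 6 libraries. The NACET rise kept a log2 fold change of at least 0.89 but lost its call without untreated replicate 1, untreated replicate 2 or NACET replicate 2 (edgeR adjusted p = 0.0524, 0.0564 and 0.0895). NACET and H2O2 levels overlapped, and their difference of 0.13 ± 0.11 did not pass (edgeR adjusted p = 0.512).

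In the edited clone MAFG stood at 59.0, 79.5 and 78.1 CPM untreated, at 79.3, 91.5 and 94.4 CPM with NACET and at 103, 141 and 130.5 CPM with H2O2. The H2O2 libraries were all above the untreated ones, while NACET replicate 1 overlapped the untreated range. H2O2 raised MAFG 1.70-fold, a log2 fold change of 0.77 ± 0.17 (edgeR adjusted p = 0.0269). That call was lost without untreated replicate 2 or 3 or H2O2 replicate 2 or 3, where the adjusted p by edgeR ran from 0.0676 to 0.126 and the log2 fold change from 0.68 to 0.84. With NACET the log2 fold change was 0.27 ± 0.14, which did not pass (edgeR adjusted p = 0.360) but did in the blocked fit at 0.28 ± 0.07 (edgeR adjusted p = 0.00780). NACET against H2O2 in the clone had −0.47 ± 0.15 for MAFG, without overlap, and did not pass (edgeR adjusted p = 0.0865). It passed in the blocked fit, in the fit of all 18 libraries without a block and without H2O2 replicate 1 (edgeR adjusted p = 1.41e-05, 0.0198 and 0.0209), and by DESeq2 (adjusted p = 0.0423). Leaving out any other 1 library did not make it pass.

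MAFF was the small MAF gene with the lowest level and the widest spread. In control cells it had 10.2, 9.07 and 13.0 CPM untreated, 13.4, 15.5 and 18.0 CPM with NACET and 6.36, 6.87 and 10.2 CPM with H2O2. The NACET libraries were above all the others of the line, and the H2O2 libraries overlapped the untreated ones through replicate 3 alone. The NACET and H2O2 groups differed 2.03-fold, a log2 fold change of 1.02 ± 0.20 (edgeR adjusted p = 0.0291), the 1 of 9 members that passed between the treatments in control cells, beside 5.88% of all genes. It did not pass without H2O2 replicate 1, H2O2 replicate 2 or NACET replicate 2 (edgeR adjusted p = 0.0908, 0.126 and 0.111), nor in the fit of all 18 libraries without a block (1.00, edgeR adjusted p = 0.118). Against untreated cells the blocked fit gave a rise of 0.55 ± 0.10 with NACET and a fall of 0.46 on the log2 scale with H2O2 (edgeR adjusted p = 6.09e-07 and 0.00224, against 0.120 and 0.184 without the block).

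In the clone MAFF had 7.37, 12.6 and 12.4 CPM untreated, 13.3, 26.4 and 24.5 CPM with NACET and 8.58, 29.2 and 20.2 CPM with H2O2. Replicate 1 was the lowest in every group of the clone, and with H2O2 it lay within the untreated range while the other replicates lay above it. Within a replicate number, H2O2 was above untreated by 0.22, 1.22 and 0.71 on the log2 scale, and NACET by 0.85, 1.07 and 0.99. Fitted without the block, 0.96 ± 0.29 (NACET) and 0.82 ± 0.40 (H2O2) did not pass (edgeR adjusted p = 0.140 and 0.201), although DESeq2 called the NACET one (adjusted p = 0.0287), and in the blocked fit MAFF rose by 0.96 ± 0.10 and 0.74 ± 0.14 (edgeR adjusted p = 1.45e-06 and 5.07e-06). Without replicate 1 of the treated group the unblocked fit passed both, at 1.22 with NACET and 1.18 with H2O2 (edgeR adjusted p = 0.0300 and 0.00960). Leaving out any other 1 library did not make either pass, and the log2 fold change then fell as low as 0.77 with NACET and 0.41 with H2O2.

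**Figure D3:**
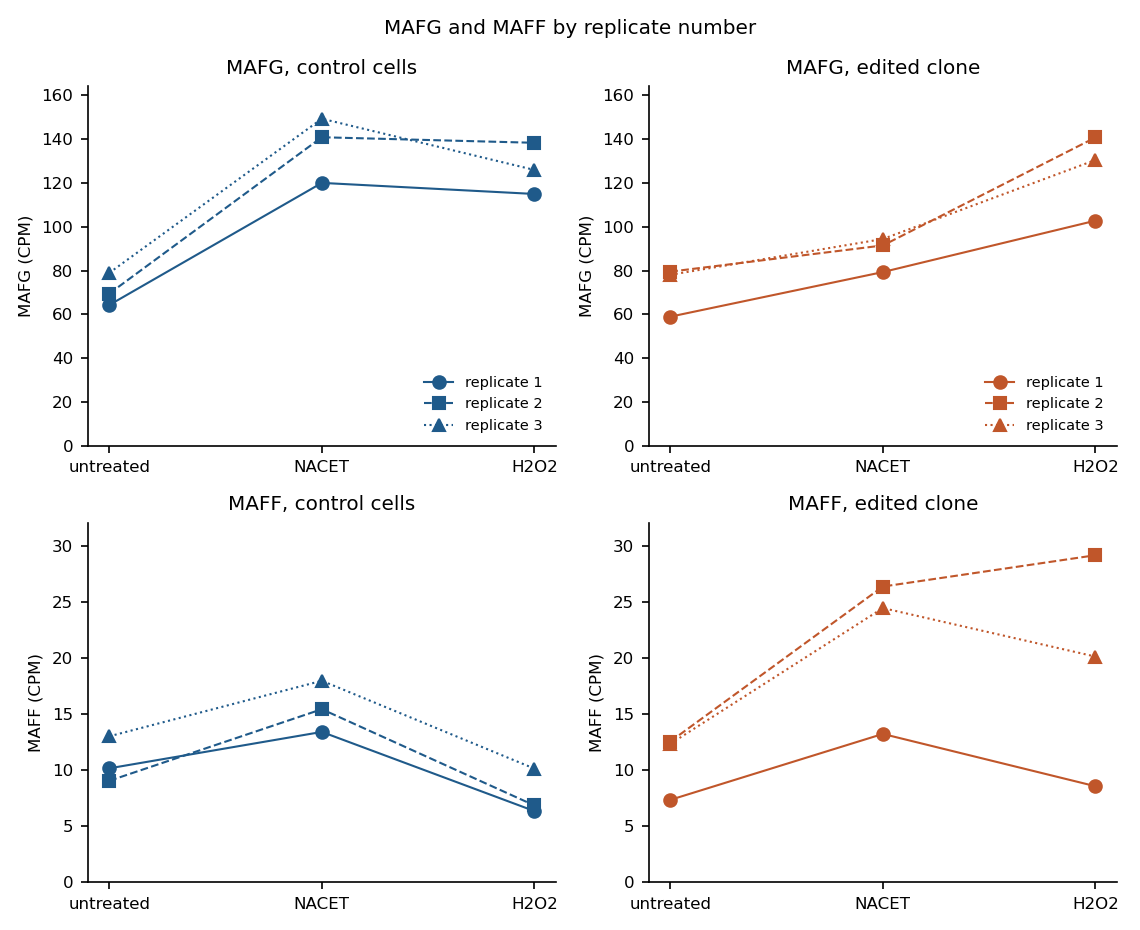
MAFG and MAFF in CPM (axes from 0) for untreated, NACET and H2O2 libraries, in control cells and the edited clone; each line joins the libraries that carry the same replicate number, and the lines do not mark a time order. Every MAFG line lies higher with NACET and with H2O2 than untreated, with a smaller step to NACET in the clone, and MAFF with H2O2 lies below untreated in control cells and above it in the clone.

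MAFK, the remaining small MAF gene, had 40.8, 40.8 and 46.8 CPM in untreated control cells, 36.2, 37.5 and 45.2 CPM with NACET and 32.7, 34.7 and 37.2 CPM with H2O2. The H2O2 libraries lay below the untreated ones without overlap. The log2 fold change of −0.29 ± 0.10 did not pass (edgeR adjusted p = 0.0861) and did in the blocked fit (−0.29 ± 0.06, edgeR adjusted p = 0.00127). In the clone the values of 35.3, 54.0 and 46.4 CPM untreated, 40.1, 50.1 and 51.8 CPM with NACET and 37.3, 42.1 and 49.3 CPM with H2O2 overlapped throughout. Neither treatment passed there in either fit.

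The makeup of the small MAF pool shifted with these changes. Per kb of mRNA MAFG made up 44.9% ± 1.33 (SD, n = 3) of the 3 small MAF mRNAs in untreated control cells, 59.6% ± 1.46 with NACET and 64.7% ± 2.76 with H2O2. In the clone it made up 44.5% ± 1.89 untreated, 43.5% ± 3.35 with NACET and 54.6% ± 3.03 with H2O2. MAFF held 14.5% ± 0.475 of the pool with NACET in control cells and 21.8% ± 4.40 in the clone. The MAFG shares with NACET did not overlap between the lines, lying between 58.5% and 61.3% in control cells and between 41.1% and 47.3% in the clone. Those with H2O2 did not overlap either, at 62.0% to 67.5% in control cells and 52.8% to 58.1% in the clone. The summed level was 31.2 ± 3.24 CPM per kb untreated and 45.3 ± 5.19 with NACET in control cells, and stood at 32.2 ± 6.18 untreated and 40.5 ± 6.37 with NACET in the clone, ranges that overlap in the clone. With H2O2 the sum was 38.6 ± 3.04 in control cells and 45.5 ± 9.27 in the clone. These shares and sums are descriptions with no test. They use the full mRNA length, of which MAFK shares 23.9%, MAFF 13.7% and MAFG 2.07% with a neighbouring gene. The MAFG share may therefore be too high in every group.

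**Figure D4:**
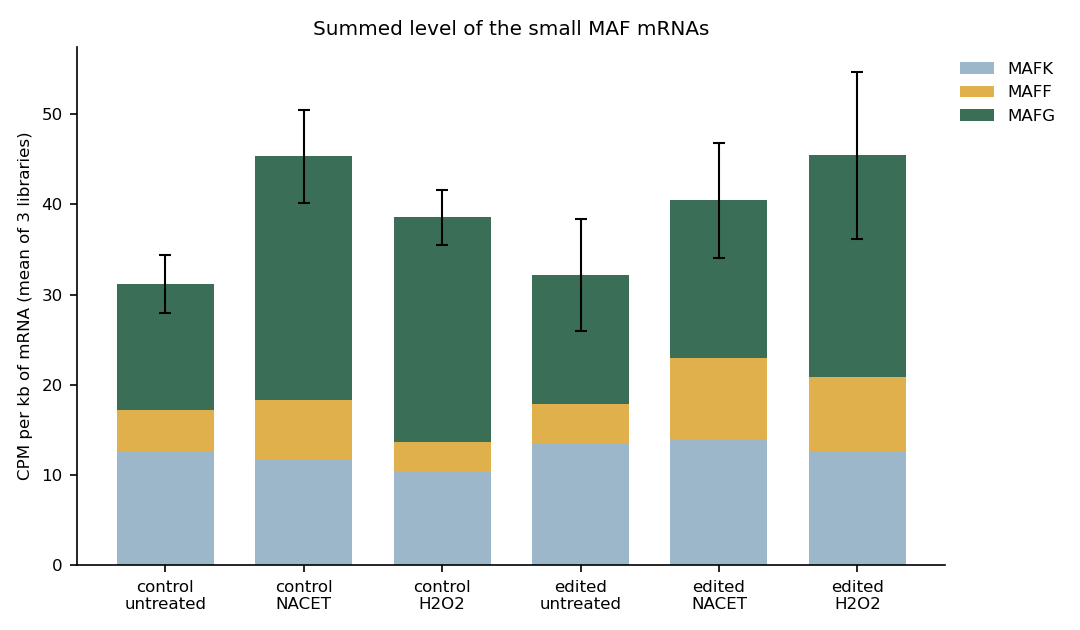
Stacked mean level of MAFK, MAFF and MAFG in CPM per kb of mRNA for the 6 groups of 3 libraries, with the SD of the summed level as the error bar. The untreated sums are alike (31.2 and 32.2), and the MAFG portion with NACET is larger in control cells than in the clone.

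BACH1, which occupies AREs as a repressor and leaves them when heme binds it, passed in no comparison in either fit. Control cells had 37.4, 38.1 and 34.7 CPM untreated, 41.3, 39.6 and 34.5 CPM with NACET and 41.1, 37.5 and 35.0 CPM with H2O2. The clone had 39.8, 37.05 and 32.3 CPM untreated, 37.6, 40.2 and 31.9 CPM with NACET and 38.4, 34.0 and 24.7 CPM with H2O2. All groups overlapped, and replicate 3 was the lowest library of every group. Its largest fitted value against untreated cells was −0.20 ± 0.18 with H2O2 in the clone (edgeR adjusted p = 0.4998). Per NFE2L2 count there were 0.295 ± 0.0170 BACH1 counts in untreated control cells, 0.363 ± 0.0328 with NACET and 0.284 ± 0.0332 with H2O2 (SD, n = 3), a ratio whose shift with NACET came with the lower NFE2L2 count.

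NFE2L1, which drives proteasome genes after release from the endoplasmic reticulum, was the most abundant member. In control cells it had 926, 806 and 770.3 CPM untreated, 689, 681 and 671 CPM with NACET and 732, 693 and 663 CPM with H2O2. Every treated library of the control line was below every untreated one. The clone had 852, 808 and 762 CPM untreated, 784, 749 and 758 CPM with NACET and 823, 947 and 888 CPM with H2O2, with all groups overlapping the untreated one. In control cells −0.28 ± 0.11 (NACET) and −0.26 ± 0.11 (H2O2) did not pass without the block but did with it (edgeR adjusted p = 1.01e-04 and 2.09e-04, against 0.188 and 0.144). In the clone −0.10 ± 0.11 and 0.11 ± 0.13 did not pass in either fit.

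The list of 7 genes that cut, deglycosylate or turn over NFE2L1 had 1 called gene in the H2O2 comparison of each line, beside 13.2% and 11.1% of all genes, and 0 in the NACET comparisons by edgeR, where 2 and 1 of 7 had an unadjusted p under 0.05 and DESeq2 called 1 and 0. The blocked fit called 3 of 7 with NACET in each line, beside 40.7% of all genes in control cells and 34% in the clone. With H2O2 it called 3 in control cells beside 48.7%, and 1 in the clone beside 46.5%. The gene called with H2O2 by the unblocked edgeR fit was FBXW7, the substrate receptor of a ubiquitin ligase, which rose by 0.64 ± 0.10 in control cells and 0.79 ± 0.16 in the clone (edgeR adjusted p = 0.00782 and 0.0184).

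NFE2L3, a related CNC factor with low levels in most adult tissues, had 31.3, 33.5 and 30.7 CPM in untreated control cells, 37.3, 33.1 and 32.8 CPM with NACET and 29.1, 31.5 and 30.8 CPM with H2O2. In the clone it had 31.7, 38.7 and 39.8 CPM untreated, 39.1, 50.3 and 47.0 CPM with NACET and 31.4, 39.6 and 37.7 CPM with H2O2. Replicate 1 was the lowest in all groups of the clone, and its NACET value overlapped the untreated range. NACET in the clone gave 0.29 ± 0.14 (edgeR adjusted p = 0.326), which passed in the blocked fit at 0.29 ± 0.08 (edgeR adjusted p = 0.00902). Of the mRNA of NFE2L3 20.0% overlaps exons of HNRNPA2B1 on the opposite strand, a gene at 1200.1 CPM in untreated control cells, and because reads were counted without regard to strand the reads there cannot be assigned to either gene.

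The lines were compared to see how these genes differed between the edited clone and the control population. Untreated, 0 of 9 passed by edgeR beside 4.07% of all genes, with 0 at an unadjusted p under 0.05 and 0 by DESeq2 (beside 4.38%). The fitted differences of edited against control cells ran from −0.05 ± 0.12 for NFE2L1 to 0.21 ± 0.12 for NFE2L3. The CUL3 libraries did not overlap between the lines, but the difference of 0.14 ± 0.10 did not pass (edgeR adjusted p = 0.650). The share of all genes without overlap was not counted in any comparison of the lines. With NACET 1 of 9 passed beside 5.42% of all genes. It was MAFG, 0.632-fold in the clone relative to control cells, a log2 fold change of −0.66 ± 0.11 (edgeR adjusted p = 0.0138), with no overlap between 79.3 to 94.4 CPM and 120.0 to 149 CPM. Its call was lost without NACET replicate 2 or 3 of control cells or NACET replicate 2 of the clone (edgeR adjusted p = 0.0758, 0.0564 and 0.0889). NFE2L3 (0.37 ± 0.12), NFE2L1 (0.14 ± 0.10) and CUL3 (0.07 ± 0.09) libraries did not overlap between the lines with NACET either. These genes did not pass (edgeR adjusted p = 0.149, 0.535 and 0.760), though NFE2L3 did in the fit of all 18 libraries without a block (edgeR adjusted p = 0.0474). With H2O2 0 of 9 passed by edgeR beside 6.23% of all genes, with 2 at an unadjusted p under 0.05 and 1 by DESeq2 (beside 7.65%), and MAFG stood at 0.975-fold. MAFF was 2.44-fold higher in the clone with H2O2, a log2 fold change of 1.29 ± 0.39 with overlapping libraries, and did not pass (edgeR adjusted p = 0.0879). It passed without replicate 1 of the clone, at 1.64 (edgeR adjusted p = 8.32e-04), and by DESeq2 with all libraries (adjusted p = 0.00821). Leaving out any other 1 library did not make it pass. NFE2L1 (0.33 ± 0.12) and MAFK (0.28 ± 0.14) libraries did not overlap between the lines with H2O2. Neither gene passed (edgeR adjusted p = 0.139 and 0.264), though NFE2L1 did in the fit of all 18 libraries without a block (edgeR adjusted p = 0.0176).

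Whether the change with a treatment differed between the lines was tested as an interaction, control minus edited. Neither interaction passed any of the 9 genes by edgeR, beside 0.0643% of all genes for NACET and 0.0214% for H2O2, with 1 and 2 members at an unadjusted p under 0.05 and 0 by DESeq2 in each (beside 0.143% and 0.396%). MAFG with NACET had 0.69 ± 0.19 (edgeR adjusted p = 1.00). In a fit of all 18 libraries blocked on the replicate number within each line, which follows the pairing seen in the data, the same difference was 0.64 ± 0.09 and passed (edgeR adjusted p = 3.86e-04), the 1 of 9 beside 0.565% of all genes. In that fit H2O2 passed 2 of 9 beside 12.3%. They were MAFF, at −1.25 ± 0.19, and NFE2L1, at −0.39 ± 0.09 (edgeR adjusted p = 2.76e-04 and 0.00740, against 0.771 and 0.758 without the block). MAFG with H2O2 had a difference of 0.05 ± 0.21 without the block.

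**Figure D5:**
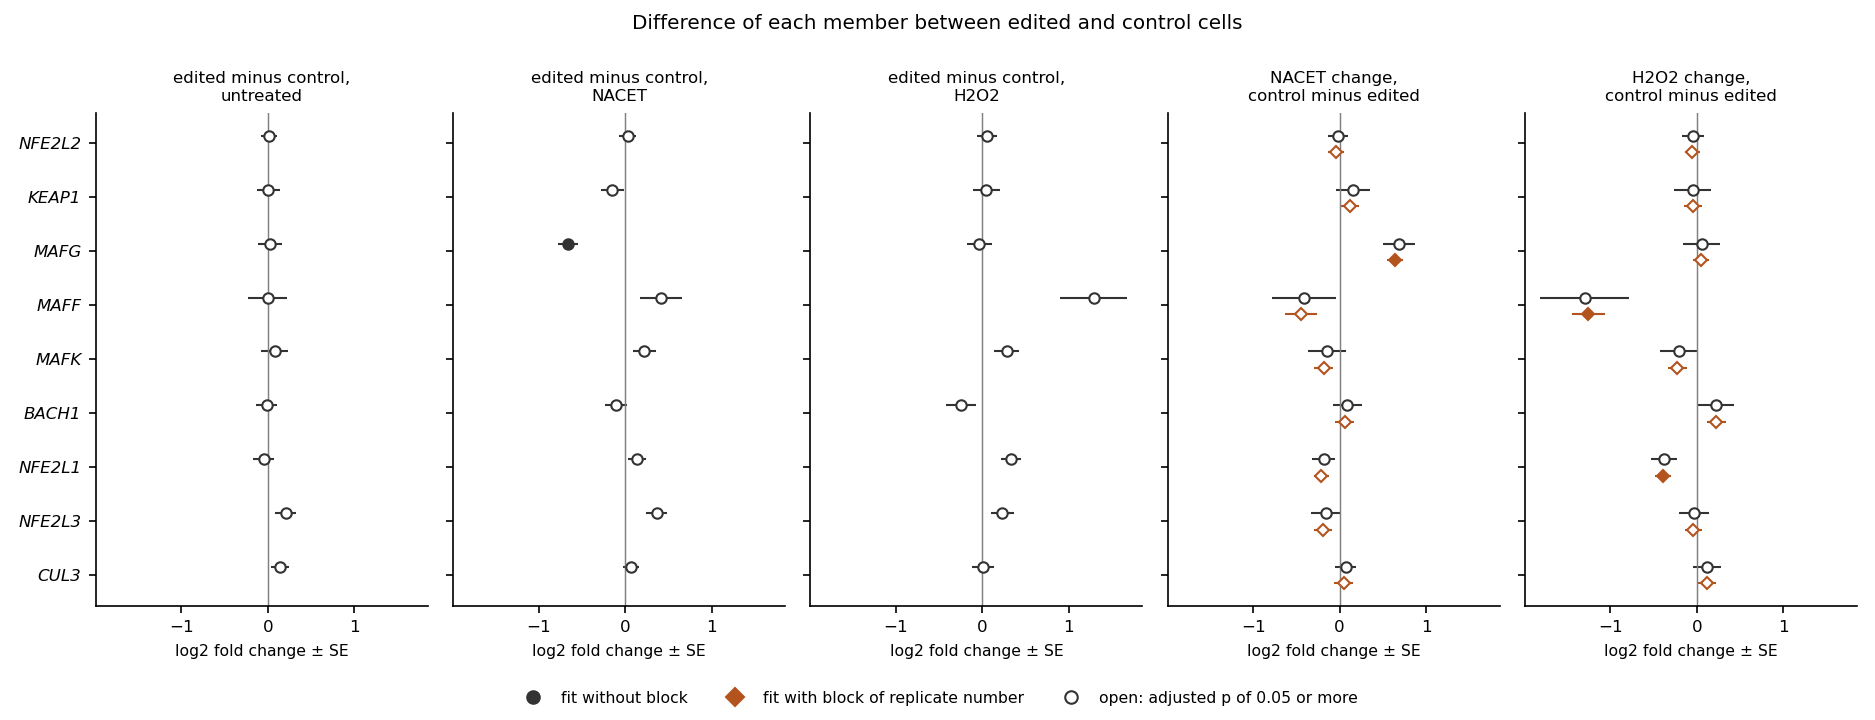
Log2 difference ± SE of each gene between edited and control cells in untreated, NACET and H2O2 libraries, and the difference between the lines in the change with NACET or H2O2 (control minus edited); circles are fits without a block, diamonds the fit of all 18 libraries with a block within each line, filled where the adjusted p was under 0.05. With NACET the filled circle is MAFG at −0.66, and in the last panels the filled diamonds are MAFG (0.64) with NACET and MAFF (−1.25) and NFE2L1 (−0.39) with H2O2.

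The treatments were also set against each other within a line. In the clone 0 of 9 differed between NACET and H2O2 by edgeR beside 10.1% of all genes, with 3 at an unadjusted p under 0.05 and 1 by DESeq2 (beside 10.9%). The blocked fit passed 4 in each line beside 41.5% in control cells and 50.2% in the clone. NFE2L2 and NFE2L3 were among them in both lines, NFE2L2 lower and NFE2L3 higher with NACET. NFE2L3 had 0.19 ± 0.07 in control cells and 0.35 ± 0.08 in the clone in that fit (edgeR adjusted p = 0.0495 and 0.00104), and with all 18 libraries blocked within each line the control cells did not pass (edgeR adjusted p = 0.0733).

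The targets of NRF2 give the setting of these values. Of 24 ARE target genes 21 were tested with NACET in control cells, and 15 rose, beside 1.91% of all genes, and 0 fell (19 and 0 in the blocked fit, beside 40.7% called). They were led by SLC7A11, the cystine transporter, at 2.67 ± 0.17, OSGIN1, an oxidative stress response gene, at 2.54 ± 0.28, and the quinone reductase NQO1 at 2.30 ± 0.26 (edgeR adjusted p = 0.00136, 0.00796 and 0.00924). The median over the 21 was 1.02, beside −0.01 over all genes tested. H2O2 in control cells raised 17 of 22, beside 7.06% of all genes, and lowered 0 (20 and 1 in the blocked fit, beside 48.7% called). The median was 0.67, and HMOX1, the heme oxygenase, was in the lead at 2.80 ± 0.25 (edgeR adjusted p = 0.00119). In the clone NACET passed 0 of 21 by edgeR beside 1.43% of all genes, with 6 at an unadjusted p under 0.05 and 2 by DESeq2 (beside 4.98%). The blocked fit had 9 higher and 2 lower, beside 34% of all genes called, and the median was 0.21. H2O2 in the clone raised 4 of 21, beside 4.96% of all genes, with SLC7A11 by 2.53 ± 0.24, HMOX1 by 1.96 ± 0.27 and ME1, the NADPH-producing malic enzyme, by 0.75 ± 0.15 being the largest (edgeR adjusted p = 0.00155, 0.00537 and 0.0177). In the blocked fit 8 of 21 rose and 0 fell, beside 46.5% of all genes called in either direction by that fit. The share of all genes called higher by that fit is not given here. The H2O2 rise of MAFG in the clone was 0.77 beside a median of 0.20 over this list. Between the untreated lines 8 of 21 targets were lower in the clone and 0 higher, beside 4.07% of all genes called, among them NQO1 at −4.03 ± 0.30 and TKT, an enzyme of the pentose phosphate pathway, at −1.47 ± 0.12 (edgeR adjusted p = 1.92e-04 and 4.05e-04). The interaction with NACET passed 3 of 21, all larger in control cells, beside 0.0643% of all genes. At an unadjusted p under 0.05 stood 18, beside 228 of 14002 genes. DESeq2 passed 13 (beside 0.143%) and the blocked fit 14, beside 38 of 14002 genes. The interaction with H2O2 passed 0 of 22 by edgeR beside 0.0214%, with 8 at an unadjusted p under 0.05, beside 806 of 13987 genes. DESeq2 passed 2 (beside 0.396%) and the blocked fit 6, beside 165 of 13987 genes. This list was written with earlier results of these data known and is no independent evidence of a direction.

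Among 10 coactivators and corepressors of NRF2, such as CREBBP, EP300 and CHD6, none passed in the 4 treatment comparisons by edgeR, with 0 or 1 at an unadjusted p under 0.05 in each and 0 by DESeq2. The blocked fit called 5 lower with NACET and 3 lower with H2O2 in control cells, beside 40.7% and 48.7% of all genes, and in the clone 4 lower with NACET and 1 higher and 2 lower with H2O2, beside 34% and 46.5%. Among 6 other CNC and large MAF factors 3 had enough counts for a test. BACH2, a relative of BACH1 known from lymphocytes, was lower in untreated edited cells by −1.47 ± 0.25 (edgeR adjusted p = 0.0123), from 3.05 CPM in control cells to 1.096 CPM in the clone.

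The genes whose log2 level followed a member most closely over the 18 libraries were named by their Pearson r among 11006 genes of at least 5 CPM. For MAFG they were ANXA7 (0.934), HMOX1 (0.933) and PITHD1 (0.932), and for NFE2L2 GNAI1 (0.937), NR1D2 (0.935) and WDR48 (0.899). KEAP1 had PKDCC (0.945) and MRPS11 (0.920), and MAFF had SH3BP5L (0.940), PHC2 (0.923) and PCDH1 (0.914). The closest to MAFK was FPGS (0.949), to BACH1 ZNF148 (0.943), to NFE2L3 EPHB2 (0.928), to CUL3 NAA50 (0.926) and to NFE2L1 PVRL2 (0.900). The points of each r share libraries, groups and replicate numbers, so these are descriptions of likeness and carry no p.

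Some of the counts may lack reads from bases shared with a neighbour. The paper counted without strand in the intersection-nonempty mode of HTSeq. In that mode a read lying wholly in exons of different genes is counted for neither. MAFG lies at chr17:79876146-79885611 on the minus strand of hg19, and 2.07% of its mRNA overlaps exons of SIRT7 on the same strand, which in control cells had −0.06 ± 0.11 (NACET) and −0.03 ± 0.10 (H2O2) and did not pass (edgeR adjusted p = 0.825 and 0.852). MAFG-AS1, by name an antisense RNA of MAFG, was counted as its own row at 2.32 ± 0.214 CPM untreated, 4.46 ± 0.888 CPM with NACET and 3.62 ± 0.209 CPM with H2O2 in control cells (SD, n = 3), and rose with NACET by 0.96 ± 0.21 and with H2O2 by 0.64 ± 0.18 (edgeR adjusted p = 0.0483 and 0.0472). In GENCODE the opposite-strand exons that overlap the MAFG mRNA carry another name, ENSG00000264769. Whether MAFG and MAFG-AS1 share reads was not tested. MAFF, at chr22:38598001-38612514 on the plus strand, shares 13.7% of its mRNA with PLA2G6 on the opposite strand, a phospholipase gene that fell by 0.77 on the log2 scale with NACET and by 0.61 with H2O2 in control cells (edgeR adjusted p = 0.0275 and 0.0234). MAFK shares 23.9% with TMEM184A on the opposite strand, a gene between 1.11 and 1.95 CPM in the 6 groups. How many reads the MAFF and MAFK counts lack for this reason was not tested. NFE2L2, KEAP1, BACH1, NFE2L1 and CUL3 share no bases with another gene of the deposited rows. Genes were matched to rows by their GENCODE name, so a renamed neighbour could be missed. With all genes of GENCODE, the shared part was 7.77% for NFE2L2, 3.97% for NFE2L1, 8.85% for CUL3 and 6.50% for MAFG.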

How the data were processed

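mRNA was measured in 18 libraries of ARPE-19 cells (TruSeq v2, NextSeq 500, single-end). The authors mapped reads to hg19 with TopHat2 2.1.0 and Bowtie, counted them per gene with HTSeq 0.11.2 without regard to strand, and removed rRNA genes. The gene annotation is not given in the sources used here. The deposited values are these raw counts per gene symbol. The 5 summary lines that name no gene, 25.8% to 27.9% of alignments, were left out. Groups and replicate numbers come from the labels.

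Pairs of groups were fitted on their own 6 libraries with edgeR 4.0.16 in R 4.3.3 (filterByExpr, TMM, quasi-likelihood test, Benjamini-Hochberg adjustment over all genes kept), and the interactions on 12. The alternatives were DESeq2 1.42.0, RLE and upper-quartile factors, no filter, at least 1 CPM in 3 libraries, 1 fit of all 18 libraries, the replicate number as a block, a log2 fold limit of 0.6, and leaving out each library. Deviations from the group means over 14153 genes correlated between same-numbered libraries of a line (0.417 to 0.825), so the numbers pair libraries within a line. The labels do not say what a number marks. Between the lines replicate 2 did not pair (−0.282 to −0.027), whereas replicates 1 and 3 correlated (0.496 to 0.715). Likeness used log2(CPM + 1). The tests were checked on simulated counts.

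The members and lists were chosen with earlier results of these data known. Named were all 9 members and, per list and comparison, at most the 3 called genes of largest fold change. Some items are not reported here.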

Additional observations from a re-analysis of the deposited data

How the results depend on the processing

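Of the 99 fold changes of the 9 genes, 5 passed, and none of the alternatives turned the direction of a called one. Over the alternatives of the fold changes 1468 kept their side of the threshold, 66 passed where the main fit did not and 14 no longer passed. How many of the 9 passed depended mostly on the replicate block. In control cells NACET gave 1, 6 with the replicate block and 4 with all 18 libraries blocked within each line, and leaving out 1 library gave 0 to 1. H2O2 there gave 1, and 6 in both blocked fits. In the clone NACET gave 0, 1 by DESeq2, 4 in both blocked fits and 0 to 1 without 1 library, and H2O2 gave 1, 3 and 4 in the blocked fits and 0 to 2 without 1 library. Edited against control cells with NACET gave 1, 2 in the fit of all 18 libraries without a block and 0 to 2 without 1 library, and with H2O2 it gave 0, 1 by DESeq2, with no filter and with the block, 2 in the fit of all 18 and 0 to 2 without 1 library. NACET against H2O2 gave 1 in control cells (2 by DESeq2, 4 and 2 in the blocked fits, 0 to 1 without 1 library) and 0 in the clone (1 by DESeq2, 2 in the fit of all 18, 4 and 5 in the blocked fits, 0 to 1 without 1 library). The NACET interaction gave 0, and 1 in both blocked fits, and the H2O2 interaction 0, and 2 with the block within each line. The NACET interaction and the H2O2 interaction gave 0 by DESeq2. Across the lines replicate 2 did not pair, although replicates 1 and 3 correlated (0.496 to 0.715). For this reason the block across lines is given for the 9 genes only here. The block within each line was not run for edited against control cells, since it is nested in the line. The cause of these differences was not tested.

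Counts over all genes moved as well. For NACET and H2O2 in control cells, then in the clone, they were 503, 1809, 194 and 1500, with the replicate block 5570, 6670, 4610 and 6304, with the block within each line 4461, 5881, 5127 and 7927, and without 1 library 31 to 377, 310 to 1692, 0 to 470 and 275 to 3173. DESeq2 gave 1093 for NACET in control cells and 902 in the clone, the fit of all 18 libraries gave 1155 and 3733 for NACET and H2O2 in the clone, and the fold limit left 867 for H2O2 in control cells. Edited against control cells gave 558, 739 and 846 untreated, with NACET and with H2O2, 1212, 2307 and 3179 with the block, 857, 1115 and 1848 in the fit of all 18, and 261 to 1010, 320 to 1046 and 400 to 4248 without 1 library, and DESeq2 gave 1160 with NACET and 1402 with H2O2. NACET against H2O2 gave 799 in control cells and 1357 in the clone, 5630 and 6767 with the block, 4722 and 7086 with the block within each line, and 164 to 857 and 257 to 2034 without 1 library. It gave 1365 by DESeq2 and 499 at the fold limit in control cells, and 3011 in the fit of all 18 in the clone. The NACET and H2O2 interactions gave 9 and 3, 27 and 75 by DESeq2, 38 and 165 with the block, 80 and 1735 with the block within each line, and 2 to 8 and 0 to 11 without 1 library. The NACET one gave 3 with RLE and 4 with upper-quartile factors, and the H2O2 one 13 with no filter and 19 in the fit of all 18.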
